A study of Sus scrofa with 12 samples.

Results

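The comparison is between skeletal muscle of pigs at day 21 and at day 7 after birth, the stretch of early life that follows the first week. Its members were chosen by their titles alone, the 3 arrays of day 21 and the 3 of day 7, which are 6 of the 12 arrays in the series. The other arrays, 3 at day 0 and 3 at day 14, entered the estimate of the spread and are given as levels for context. RNA was measured on Affymetrix porcine arrays, on which several short probes make up a probe set for a transcript, and the set's brightness is its signal.

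All animals are described only as pigs sampled for skeletal muscle, with 3 biological replicates per age. Which muscle was taken, the breed, the sex, any treatment and whether an array held 1 animal or a pool are not given in the sources used here. The p-values therefore measure the spread between these samples. The 13 skeletal muscle markers with a symbol on the array, among them CKM, TTN and RYR1, were all above the limit for dim probe sets, and their summed signal was 445600 to 511500 at day 7 and 476900 to 613900 at day 21. Each of the 4 cardiac markers with a symbol (NPPA, NPPB, TNNI3 and GATA4) was dim. Their summed signal was 112.8 to 241.6 at day 7 and 258.7 to 513.9 at day 21, a difference that was not tested.

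Muscle fibres of newborn piglets are completed before birth, so later growth is by enlargement of fibres, by the addition of nuclei from dividing satellite cells and by a change in the proteins the fibres make. Developmental forms of myosin, troponin and actin give way to adult ones, and fibres divide into slow, oxidative ones and fast, glycolytic ones. Growth in this period draws on insulin-like growth factors, some of whose regulators are imprinted, that is, expressed from 1 parental copy.

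Each of 14399 probe sets was compared in limma, with Benjamini-Hochberg adjustment over all of them, and 1 probe set passed an adjusted p of 0.05 (0.00694%). It was lower at day 21, and 0 were higher. At an unadjusted p under 0.05 there were 480 probe sets higher at day 21 and 479 lower, 3.33% each way. The median change over all probe sets was 0.00824 on the log2 scale, and the median standard error was 0.268. The gene values below therefore describe differences that in nearly every case did not pass the test after adjustment, and a p that misses the threshold does not show that the ages were alike. By the same test 1 probe set differed between day 14 and day 7, 0 between day 21 and day 14 (436, or 3.03%, at an unadjusted p under 0.05) and 1353 between day 7 and day 0 (9.4%). These comparisons share arrays, and the difference between the counts was not tested.

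The day 7 and day 21 arrays were close to each other as a whole. Correlations of log2 signal were 0.945 to 0.954 within day 7, 0.937 to 0.949 within day 21 and 0.931 to 0.951 between the ages. Of 8 technical measures, 4 did not overlap between the ages, at the smallest exact two-sided permutation p that 3 against 3 arrays allow (p = 0.1, adjusted 0.2 over the 8). The log2 ratio of 3' to 5' signal of the poly-A spike RNAs, a measure of how complete the labelling was, ran from 0.37 to 0.53 at day 7 and from 0.54 to 0.67 at day 21. The same ratio for the pig's own GAPDH ran from 0.20 to 0.24 and from 0.27 to 0.29, and for EF1A from 0.27 to 0.32 and from 0.33 to 0.52. The log2 signal of 28S ribosomal RNA ran from 12.5 to 12.6 and from 12.1 to 12.4. The fit with the spike ratio as a covariate gave list medians of -0.24 for developmental sarcomere genes, -0.54 for the cell cycle, -0.39 for imprinted genes, -0.54 for immediate early genes, -0.22 for chaperones, 0.19 for fast fibres, 0.20 for MHC class I and 0.28 for MHC class II. Those of some other lists stand with the list. The part of the other measures was not tested.

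**Figure D1:**
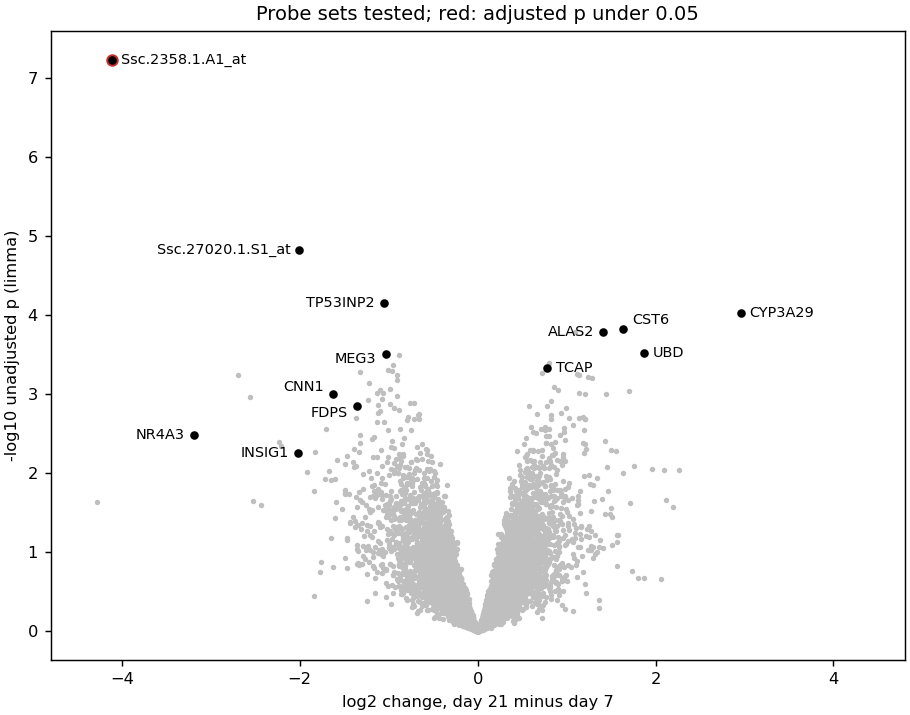
Each point is 1 of 14399 probe sets, with the log2 change from day 7 to day 21 on the horizontal axis and -log10 of the unadjusted limma p on the vertical axis. The probe set with the red ring, at -4.11, is the 1 that passed adjustment, and the other labelled probe set and genes did not pass it.

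The probe set that fell, the first by p, carries no gene symbol in the probe table used here. Its signal was 3292, 1399 and 1261 in the 3 day 7 arrays and 99.1, 68.5 and 165.7 in the day 21 arrays. Every day 7 value was above every day 21 value, and 1 of the day 21 values lay below the 90.3 at which probe sets were taken as dim. It fell by 4.11 ± 0.38 on the log2 scale (SE, n = 3 per age), or 17.3-fold, with a limma adjusted p of 0.000838. It was still called in each of the 18 alternative settings, including every left-out array, with adjusted p from 8.24e-05 to 0.0291. Its mean signal was 5278 at day 0 and 201.2 at day 14, so the levels followed the order of the ages.

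The next probe set by p also has no symbol. Its signal was 3595, 5173 and 4816 at day 7 and 656, 1400 and 1516 at day 21, with no overlap. The change was -2.00 ± 0.30 (limma adjusted p = 0.107), and its mean at day 0 was 20430. Of the first 20 probe sets by p, 5 carried no single symbol.

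Of the 14399 probe sets, 7144 carried 1 symbol and stood for 5296 genes, each read by its brightest probe set. No gene passed adjustment in limma (0%, in either direction), while 169 were higher and 205 lower at an unadjusted p under 0.05 (3.19% and 3.87%). The 3 values of day 21 lay wholly above those of day 7 in 491 genes (9.27%) and wholly below in 446 (8.42%). The mean was higher at day 21 in 49.9% of genes and lower in 50.1%. Counts for the gene groups are read against these shares, which hold for all 6 arrays on the deposited scale. Leaving out an array can only keep or raise a count without overlap, in any list, and the share over all genes was not counted there. The hybridization controls were 0.07 higher at day 21 on the log2 scale, so scaling on them lowers the change of every gene by that amount. The median over all probe sets was then -0.06, and the shares without overlap were not counted. In whole tissue, fewer cells of a type and less RNA per cell cannot be told apart.

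There were 38 genes at least 2-fold lower without overlap (0.718%) and 22 at least 2-fold higher (0.415%). Among the 12 of the lower genes with the lowest p, TP53INP2, which takes part in autophagy, had signals of 2865, 3286 and 3925 at day 7 and 1606, 1766 and 1448 at day 21. The lowest day 7 array was well above the highest day 21 array, and the change was -1.06 ± 0.19 (limma adjusted p = 0.336). MEG3, an imprinted noncoding RNA, read 894, 665 and 818 at day 7 and 418, 416 and 326 at day 21, a change of -1.03 ± 0.21. The cardiac actin gene ACTC1, the actin of developing muscle, read 35155, 27871 and 23697 against 15307, 11412 and 16540, a change of -1.002 ± 0.22. Neither set of values overlapped.

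CNN1, the smooth muscle protein calponin, stood at 4630, 3403 and 2162 at day 7 and at 684, 960 and 1760 at day 21 (-1.63 ± 0.39). NR4A3, an orphan nuclear receptor induced within minutes of stimulation, had the largest difference of the 24 genes in either direction at -3.19 ± 0.89, with 992, 682 and 2958 against 74.6, 356.9 and 99.8. The day 7 arrays of NR4A3 were far apart from each other, and its adjusted p was 0.529. The lower genes also held the tetraspanin TSPAN9 (-1.22 ± 0.28), NUDT2, which breaks down a dinucleotide (-1.13 ± 0.27), the zinc finger gene ZNF385D (-1.36 ± 0.36) and MLLT11 (-1.13 ± 0.30). The last 3 of the 12 were enzymes of sterol synthesis, FDPS, CYP51 and ACAT2, described with their pathway. The limma adjusted p of the 12 ran from 0.336 to 0.540.

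Among the 12 genes higher at day 21, CYP3A29, a cytochrome P450 enzyme that breaks down steroids and drugs, showed the widest difference. It read 99.4, 134 and 295 at day 7 and 1195, 1498 and 1027 at day 21, a change of 2.96 ± 0.54, or 7.77-fold (limma adjusted p = 0.336). CST6, an inhibitor of cysteine proteases, read 393, 279 and 183 against 1044, 1053 and 551 (1.64 ± 0.31). Its day 0 signals were 956, 869 and 773, near those of day 21, so day 7 was the lowest of the 4 ages. ALAS2, the erythroid enzyme that starts haem synthesis, read 297, 344 and 395 against 1136, 682 and 974 (1.41 ± 0.27).

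UBD, a ubiquitin-like protein induced by interferon, read 167, 146 and 93.9 at day 7 and 802, 285 and 490 at day 21 (1.87 ± 0.39, limma adjusted p = 0.390). GRB10, an adaptor that dampens insulin and growth factor receptors, read 1894, 1414 and 1468 against 4161, 2889 and 3461 (1.13 ± 0.27). The other 7 were the deubiquitinase STAMBPL1 (1.29 ± 0.29), YPEL3 (1.03 ± 0.27), CFAP73 (1.18 ± 0.34), LOC100152306 (1.56 ± 0.47), the calcium-dependent kinase CAMK1 (1.76 ± 0.57), the kinetochore factor PMF1 (1.45 ± 0.47) and MRLN (1.20 ± 0.40). MRLN encodes myoregulin, a small inhibitor of the calcium pump of the sarcoplasmic reticulum. The other tested probe set of PMF1 was at 0.11 and overlapped. LOC100152306 was dim at day 7, and so were 2 of the 3 day 7 arrays of CAMK1. The limma adjusted p of the 12 ran from 0.336 to 0.641.

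**Figure D2:**
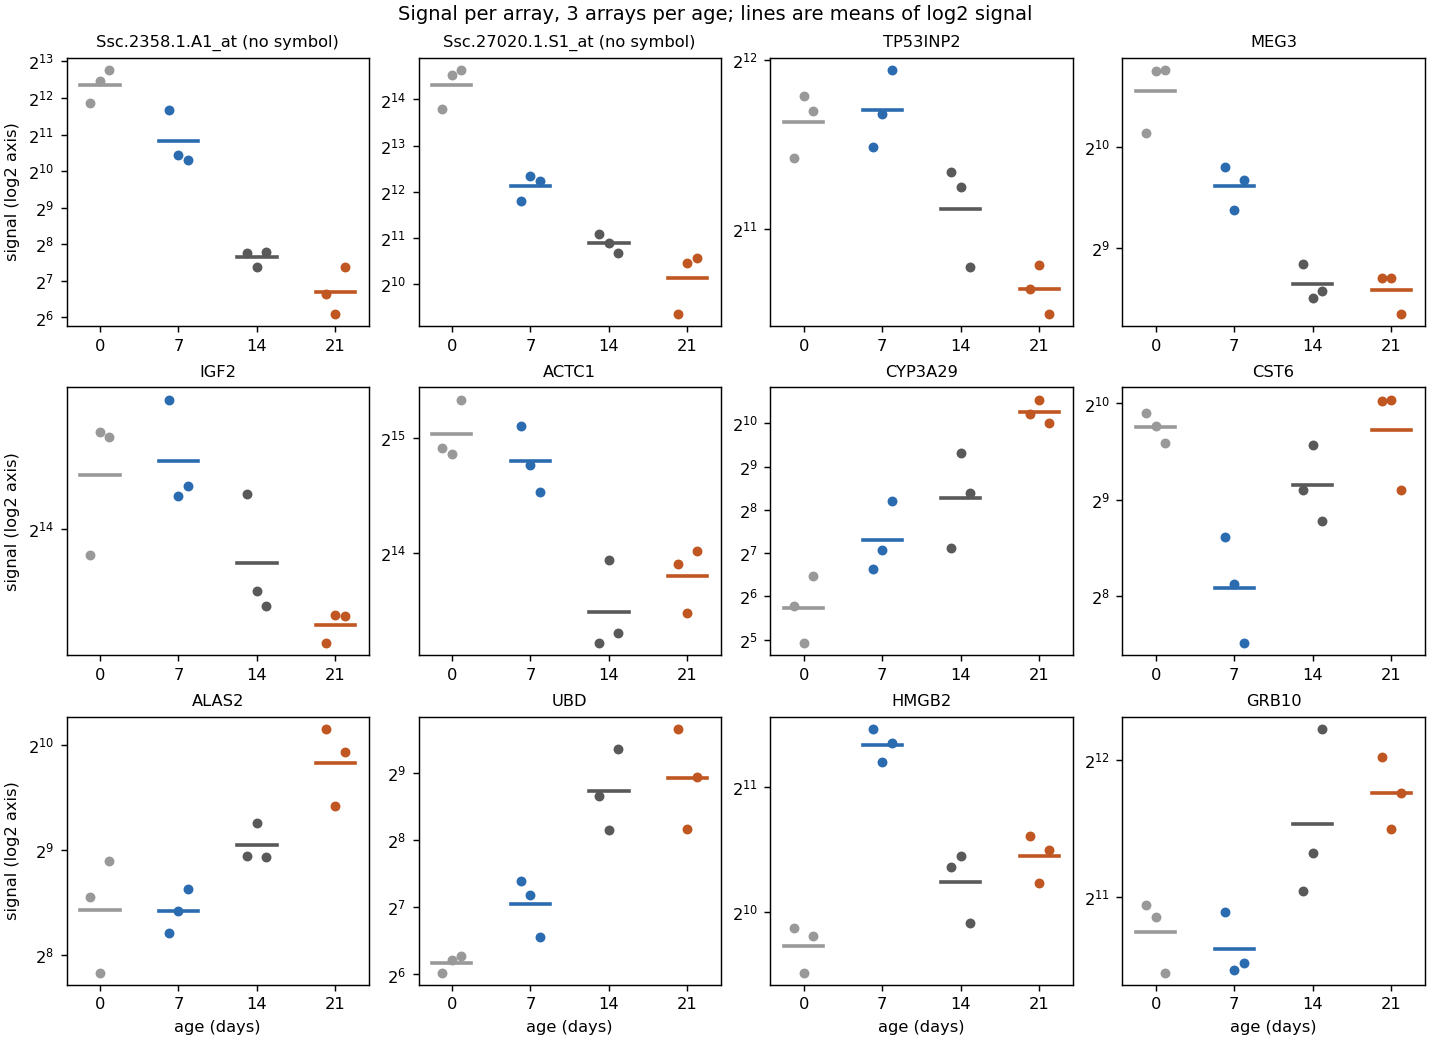
Signal per array on a log2 axis for 2 probe sets without a symbol and 10 genes, with 3 points per age and the mean of log2 signal as a line. The day 7 and day 21 points do not overlap in any panel, and the first goes from 3292, 1399 and 1261 at day 7 to 99.1, 68.5 and 165.7 at day 21.

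Genes of cholesterol synthesis were mostly lower at day 21. The pathway builds sterols from acetyl units in the endoplasmic reticulum, and the transcription factor SREBF2 drives its enzymes, while INSIG1 holds that factor back and is itself one of its targets. Of 15 genes measured, 12 were lower at day 21, 10 of them without overlap against 8.42% of all genes, and the median change was -0.90 against -0.000477 over all genes. At an unadjusted p under 0.05, 8 were lower and 0 higher, and 0 passed adjustment over all probe sets.

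FDPS, which makes farnesyl pyrophosphate, read 2806, 2783 and 1846 at day 7 and 1016, 845 and 1005 at day 21 (-1.35 ± 0.34, limma adjusted p = 0.424). INSIG1 read 2874, 2064 and 2451 against 665, 644 and 509 (-2.02 ± 0.61, adjusted p = 0.596), or 4.06-fold. The gap between the ages was wide in both genes and the arrays of day 21 were close together. When the 3 day 0 arrays were left out of the estimate of the spread, both genes passed in limma, INSIG1 at an adjusted p of 0.00763 and FDPS at 0.0485. With only the 6 arrays compared INSIG1 passed (adjusted p = 0.0176) and FDPS did not. Over all alternatives the adjusted p ran from 0.00763 to 0.942 in INSIG1 and from 0.0485 to 0.886 in FDPS.

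CYP51, the lanosterol demethylase, read 1612, 1204 and 1037 against 518, 568 and 441 (-1.32 ± 0.37), and ACAT2, which joins acetyl units at the start of the pathway, read 505, 395 and 504 against 212, 235 and 181 (-1.16 ± 0.33). Both of the ACAT2 probe sets were lower, by 1.04 and 1.16. Squalene epoxidase SQLE (-1.06 ± 0.44), the demethylation enzyme MSMO1 (-1.17 ± 0.42) and HSD17B7 (-0.92 ± 0.35) were also lower without overlap, as were SC5D, NSDHL and HMGCS1 by smaller amounts (-0.49, -0.40 and -0.20). FDFT1, squalene synthase, went the other way, with 1244, 1119 and 1025 against 1711, 1938 and 1498 (0.60 ± 0.47). SREBF2 itself overlapped (-0.41 ± 0.41).

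The day 14 means lay near day 21, at 914 for FDPS and 567 for INSIG1. The day 0 arrays were split, with INSIG1 at 285, 388 and 2900 and FDPS at 732, 785 and 2227, so day 0 replicate 3 stood with the day 7 arrays. Day 7 had the highest mean of the 4 ages in 8 of the 15 genes, against 19.8% of all genes. The median of the group was -0.71 in the fit that included the spike ratio, -0.97 on the scale of the hybridization controls, and between -0.97 and -0.68 when any 1 array was left out.

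On the separate list of fat cell and fat storage genes the values went both ways. Stearoyl-CoA desaturase SCD read 1170, 1178 and 890 at day 7 and 390, 478 and 365 at day 21 (-1.39 ± 0.41, limma adjusted p = 0.596). Fatty acid synthase FASN was at -0.82 ± 0.31, although its 3 tested probe sets ran from -0.82 to 0.09, and the lipid droplet protein PLIN2 at -0.75 ± 0.26. CFD, the adipocyte protease adipsin, was higher (0.49 ± 0.17). Over the 20 genes of that list, 2 were higher and 3 lower without overlap, against 9.27% and 8.42% of all genes. The median was 0.10, and it turned sign when any of 3 single arrays was left out, to -0.08 (day 7 replicate 1), -0.05 (day 7 replicate 2) and -0.01 (day 21 replicate 2). Of the 7 adipocyte markers with a symbol, ADIPOQ was dim and the summed signal was 4485 to 7174 at day 7 and 5618 to 6448 at day 21.

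**Figure D3:**
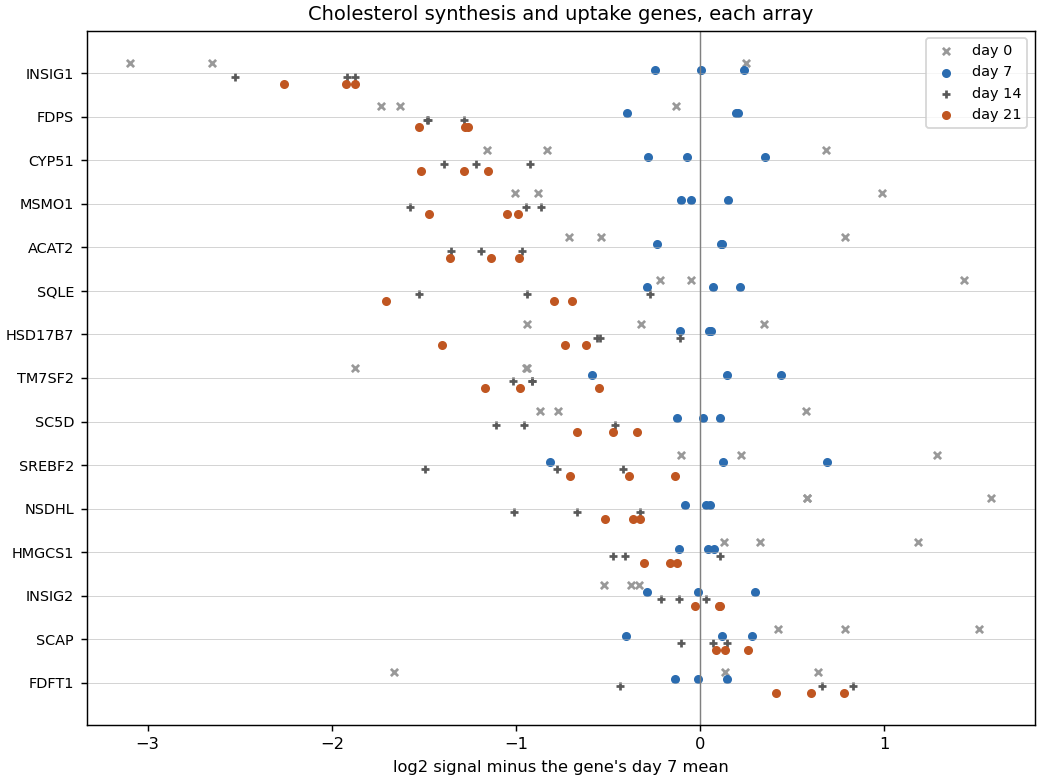
Log2 signal of each array minus the gene's day 7 mean for the 15 genes of cholesterol synthesis and uptake, with 3 points per age. Day 21 points lie left of all day 7 points in 10 genes and right of them in FDFT1, and the day 0 points of several genes are split.

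Cell cycle genes were lower at day 21 almost throughout. Of 35 measured, 34 were lower and 18 of these had no overlap, against 8.42% of all genes, while 0 were higher without overlap. The median was -0.52, and between -0.64 and -0.43 in all alternatives. At an unadjusted p under 0.05, 9 were lower and 0 higher, and 0 passed adjustment.

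HMGB2, a chromatin protein of dividing cells, read 2817, 2348 and 2603 at day 7 and 1562, 1201 and 1444 at day 21 (-0.89 ± 0.18, limma adjusted p = 0.390). CKS2, a partner of cyclin-dependent kinases, read 1066, 932 and 988 against 668, 539 and 544 (-0.78 ± 0.25). CCND2, a cyclin of the first growth phase, read 2188, 1706 and 1518 against 394, 1475 and 610 (-1.33 ± 0.40). Day 21 replicate 2 was close to the day 7 arrays in CCND2 and the other day 21 arrays were far below. BIRC5, which guards chromosome segregation, was at -0.83 ± 0.34.

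These genes were at their highest at day 7 in 31 of 35, against 19.8% of all genes. HMGB2 stood at 940, 734 and 895 at day 0 and at 1311, 1395 and 966 at day 14. The 1 gene with a higher mean at day 21 was MCM4 (0.55 ± 0.68). All 3 satellite cell markers measured had lower means, namely CALCR, NCAM1 and MYF5, with -0.40 ± 0.39 in CALCR, -0.47 ± 0.32 in NCAM1 and -0.15 ± 0.46 in MYF5, and all 3 overlapped. All 4 probe sets of NCAM1 were lower.

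Slow fibre genes were mostly higher at day 21. Of 11 measured, 7 were higher and 2 lower without overlap, against 9.27% and 8.42% of all genes, and the median was 0.42. At an unadjusted p under 0.05, 6 were higher and 1 lower, and 0 passed adjustment. TNNC1, the calcium-binding troponin of slow fibres and heart, read 16047, 19585 and 13825 at day 7 and 25810, 34745 and 27204 at day 21 (0.83 ± 0.20, or 1.78-fold, limma adjusted p = 0.424).

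The slow troponins TNNI1 (0.81 ± 0.26) and TNNT1 (0.69 ± 0.23) and the slow light chains MYL3 (0.57 ± 0.19) and MYL2 (0.42 ± 0.17) were higher in the same way. MYH7, the slow myosin heavy chain, read 29524, 29892 and 24561 against 32930, 40622 and 40080 (0.44 ± 0.19, limma adjusted p = 0.730), and the slow calcium pump ATP2A2 was at 0.42 ± 0.23, with 4 tested probe sets from 0.09 to 0.49. CASQ2, a calcium store protein of slow fibres and heart, was lower, with 1776, 2046 and 1476 against 476, 1381 and 1014 (-1.003 ± 0.40). TPM3 was lower by a small amount (-0.23 ± 0.18) and lost its separation with quantile normalization, and the mean of its probe sets was higher at day 21 (0.25).

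The day 14 arrays were uneven in these genes, with TNNI1 at 27523, 13504 and 21196. The median of the group was 0.35 on the scale of the hybridization controls, 0.50 with the spike ratio as a covariate, and 0.34 to 0.49 when any 1 array was left out. Which muscle was sampled, and whether it was the same at each age, is not given in the sources used here, and its part in the slow fibre values was not tested.

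Fast fibre genes had small differences. All 9 measured were higher at day 21, by 0.07 to 0.26, with a median of 0.17. Only MYOZ1, a Z-disc protein of fast fibres, had no overlap (0.26 ± 0.15), against 9.27% of all genes higher. The median was 0.05 with quantile normalization and 0.08 without day 21 replicate 3. The count without overlap was 4 on the scale of the hybridization controls, 3 without day 7 replicate 1 and 7 without day 21 replicate 1. MYH2, the myosin of fast oxidative fibres, was at 0.20 ± 0.28 and TNNT3, the fast troponin T, at 0.17 ± 0.14. The genes MYH1, MYH3, MYH4, MYH8, MYOG, PAX7, COL1A1, H19 and DLK1 carry no symbol in the probe table and are not analysed here.

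Among developmental sarcomere genes and actins, 7 of 9 were lower, with a median of -0.33. Without overlap 3 were lower and 2 higher, against 8.42% and 9.27% of all genes. Day 7 had the highest mean of the 4 ages in 5 of the 9, against 19.8% of all genes, and day 0 in 1. From day 0 to day 7 the mean of ACTA2 went from 6358 to 13340 and that of TNNT2 from 117.7 to 624.6, while ACTC1 went from 33550 to 28530. Besides ACTC1, the smooth muscle actin ACTA2 was lower, at 12941, 13532 and 13567 against 7446, 7665 and 9496 (-0.71 ± 0.18), and so was the cytoskeletal tropomyosin TPM4 (-0.52 ± 0.22). TNNT2, the troponin T of heart and immature muscle, read 409, 1088 and 547 against 89.4, 176.7 and 503.8 and overlapped (-1.65 ± 0.57). MYL4, the light chain of embryonic muscle and atrium, was higher at 244, 297 and 275 against 576, 389 and 496 (0.83 ± 0.21), as was the actin ACTG1 (0.30 ± 0.13), whose 4 tested probe sets ran from -0.23 to 0.49. Median centring left 1 of these 2 without overlap.

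Smooth muscle and pericyte markers, a list that includes ACTA2 and CNN1, were lower in 6 of 8 measured, with a median of -0.35. Of these 6, 4 were without overlap, against 8.42% of all genes. SMTN, among the 4, was at -0.27, but its other tested probe set was at 0.53. The summed signal was 42230 to 44420 at day 7 and 33370 to 38390 at day 21. DES, also on the list, was at 0.10 ± 0.14. The part of these cells in the actin values was not tested.

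**Figure D4:**
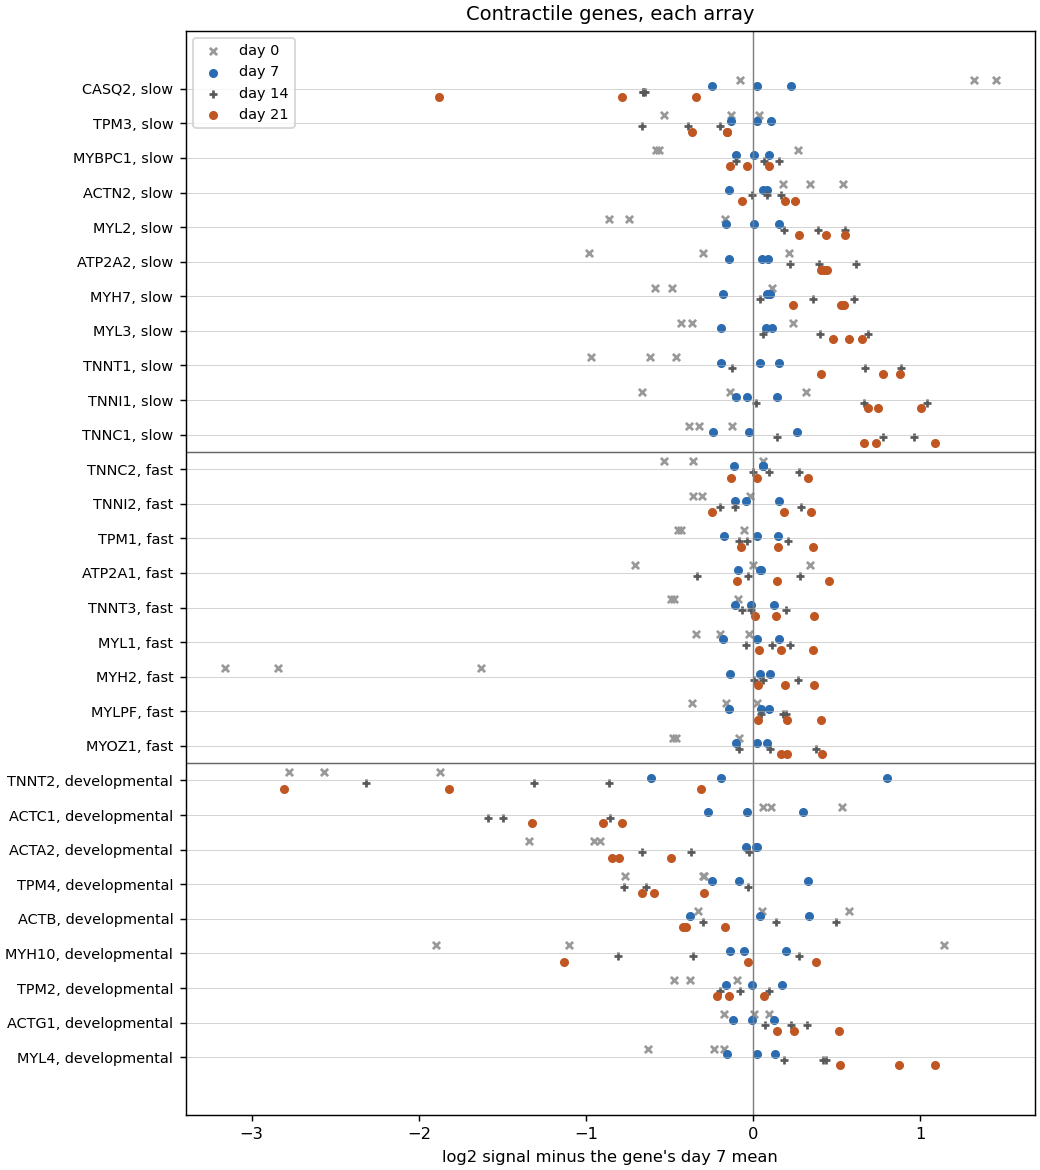
Log2 signal of each array minus the gene's day 7 mean for slow, fast and developmental contractile genes, with 3 points per age. The day 21 points lie right of day 7 in 7 slow genes, by 0.83 on average for TNNC1, and left of it in CASQ2, ACTC1 and ACTA2, while fast genes lie close to 0.

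In the sarcomere's framework, TCAP, the titin cap at the Z-disc, read 6900, 7267 and 7064 at day 7 and 9515, 15544 and 12036 at day 21 (0.78 ± 0.17, limma adjusted p = 0.390). Over the 21 titin, nebulin and Z-disc genes, 4 were higher and 0 lower without overlap, against 9.27% and 8.42% of all genes. The median of 0.06 turned sign with quantile normalization, on the scale of the hybridization controls (-0.02) and without day 21 replicate 3 (-0.0011). Without day 21 replicate 1, 9 were higher without overlap. TMOD4, which caps thin filaments, was at 0.60 ± 0.30, and XIRP1 at -1.35 ± 0.61 with 1049, 2138 and 6395 against 734, 1732 and 686. In excitation contraction coupling, the calcium release channel RYR1 read 11606, 9692 and 6935 against 12745, 13049 and 17176 (0.62 ± 0.19). Its relative RYR3, the channel of immature muscle, was at -0.80 ± 0.42 and overlapped, with another probe set at -0.155. Of the 16 genes, 2 were higher and 0 lower without overlap, against the same shares of all genes, with a median of 0.12. The median was 0.02 without day 21 replicate 3 and 0.03 with quantile normalization, and the counts were 5 and 0 without day 21 replicate 1 and 2 and 2 without day 7 replicate 3.

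Imprinted genes were lower in 12 of 13, against 50.1% of all genes. The median was -0.42, or -0.59 to -0.29 over the alternatives. Without overlap 6 were lower and 1 higher, against 8.42% and 9.27% of all genes. At an unadjusted p under 0.05, 5 were lower and 1 higher, and 0 passed adjustment. IGF2, the fetal growth factor, read 24748, 18207 and 18760 at day 7 and 11370, 12454 and 12393 at day 21 (-0.76 ± 0.19, or 1.69-fold, limma adjusted p = 0.424). All 11 tested probe sets of IGF2 were lower, by 0.06 to 1.32. These read the same samples and are not replicates.

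PEG10, a gene derived from a retroelement, read 1162, 1056 and 1452 against 435, 926 and 510 (-1.04 ± 0.37), and both of its probe sets were lower. DIO3, which inactivates thyroid hormone, read 182, 178 and 148 against 80.2, 83.8 and 116.8 (-0.87 ± 0.37), with 2 of the day 21 arrays below the limit for dim probe sets. PEG3 (-0.67 ± 0.30) and NDN (-0.43 ± 0.21) completed the 6. GRB10 was the 1 gene of the list that was higher, in both of its probe sets. MEG3 had 1 probe set without overlap and another at -0.48 that overlapped. From day 0 the mean of MEG3 went from 1505 to 787 at day 7 and that of PEG10 from 2268 to 1212, while IGF2 stood at 19470 and 20370. DIO3 went the other way, from 75.8 to 168.6. Day 7 had the highest mean of the 4 ages in 7 of the 13 genes, against 19.8% of all genes, and day 0 in 5.

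Among other genes of the growth axis, the growth hormone receptor GHR read 302, 322 and 275 at day 7 and 446, 488 and 487 at day 21 (0.66 ± 0.24, limma adjusted p = 0.685). IGF1 (0.25 ± 0.24) and IGF2R (-0.42 ± 0.25), which clears IGF2, overlapped. Of the 10 genes 1 was higher and 1 lower without overlap, against 9.27% and 8.42% of all genes. The median of -0.06 turned sign with the spike ratio as a covariate (0.02) and without day 21 replicate 2 (0.01) or 3 (0.17). MSTN, the inhibitor of muscle growth myostatin, read 373, 626 and 512 against 1254, 665 and 856 (0.86 ± 0.62, limma adjusted p = 0.878). The ages did not overlap, but the highest day 7 array and the lowest day 21 array were close. ACVR1B, a receptor for this family of ligands, was at 0.67 ± 0.20, and the 12 genes of the myostatin pathway had a median of 0.04, which turned sign on the scale of the hybridization controls (-0.03) and without day 21 replicate 2 (-0.06).

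The myogenic factors MYOD1 (0.09 ± 0.26), MYF5 and MYF6 (-0.82 ± 0.44) overlapped, and none of the 14 genes of this list was without overlap. SIX4, a homeobox factor of muscle, was at 0.61 ± 0.26. In the insulin, AKT and mTOR list of 9 genes, FOXO3, which drives atrophy genes, was the 1 without overlap, at 117, 160 and 188 against 32.4, 108.7 and 54.0 (-1.40 ± 0.44), partly below the limit for dim probe sets. The list's median was -0.06, and the share of all genes lower without overlap was 8.42%. Of 4 genes of calcineurin signalling, the inhibitor RCAN1 was at -0.91 ± 0.52 and PPP3CB at 0.26 ± 0.16 (3 tested probe sets, from -0.11 to 0.26), and of 3 neuromuscular junction genes none was without overlap.

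Genes that respond within minutes to stress or growth factors were lower in 19 of 22, with a median of -0.61, and 3 had no overlap against 8.42% of all genes. The 3 were NR4A3, RGS2, a brake on G protein signals (-0.92 ± 0.29), and DUSP6, a phosphatase of the ERK kinases (-0.45 ± 0.17). The day 7 arrays were uneven in this group. ATF3, a stress-induced factor, read 419, 8879 and 11292 at day 7 and 446, 1335 and 451 at day 21 (-2.43 ± 0.97), and JUN read 4630, 10923 and 8656 against 3352, 6460 and 4766 (-0.69 ± 0.30). Day 7 replicate 1 lay among the day 21 arrays in JUN and below all of them in ATF3. Without it 10 genes were lower without overlap and the median was -0.89. The median was -0.39 without day 21 replicate 1. The count was 6 without day 7 replicate 2 or day 21 replicate 2. How long after death the muscle was frozen is not given in the sources used here, and its part in these values was not tested.

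Glycolysis and glycogen genes had a median of 0.16 over 30. Without overlap 3 were higher and 1 lower, against 9.27% and 8.42% of all genes. The median was 0.03 with quantile normalization, 0.09 without day 21 replicate 3 and 0.26 with the spike ratio as a covariate. The counts were 8 higher and 2 lower without day 7 replicate 1, 8 and 1 without day 21 replicate 1, 4 and 4 on the scale of the hybridization controls, and 3 and 4 without day 21 replicate 3. PKM, pyruvate kinase, was at 0.47 ± 0.18, LDHB, the lactate dehydrogenase of oxidative tissue, at 0.48 ± 0.21 and PPP1R1A, an inhibitor of protein phosphatase 1, at 0.51 ± 0.21. SLC2A1, the basal glucose transporter, read 236, 300 and 244 at day 7 and 81.5, 122.5 and 202.3 at day 21 (-1.03 ± 0.39). In fatty acid oxidation 7 of 32 genes were higher and 2 lower without overlap, against the same shares of all genes, with a median of 0.09. On the scale of the hybridization controls 1 was higher and the median was 0.02. ACADVL (0.33 ± 0.15), DECR1 (0.34 ± 0.15) and PPARD (1.16 ± 0.53) were higher, and the fatty acid ligase ACSL3 lower (-0.54 ± 0.23).

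PPARGC1A, a coactivator of mitochondrial genes, read 3268, 1430 and 5152 against 1382, 1995 and 1297 and overlapped (-0.92 ± 0.36). UCP3, the uncoupling protein of muscle, overlapped at 0.50 ± 0.25, and its other tested probe set was at 0.08. Oxidative phosphorylation genes were higher in 45 of 55 and lower in 10, with a median of 0.10. Without overlap 6 were higher and 1 lower, against 9.27% and 8.42% of all genes. On the scale of the hybridization controls 32 were higher and 23 lower and the median was 0.03, against -0.06 over all probe sets. NDUFS7 of complex I (0.39 ± 0.20) and ATP5G2 of the ATP synthase (0.27 ± 0.14) were among the 6, which became 28 without day 21 replicate 2 and 12 without day 7 replicate 2. The citric acid cycle had a median of 0.07 over 27 genes, -0.01 on the scale of the hybridization controls and -0.00324 without day 21 replicate 1, and its 2 genes higher without overlap became 11 without day 21 replicate 2. Creatine and glycerol phosphate genes had a median of 0.14 over 12, or 0.03 with quantile normalization, with GPD2 at 0.58 ± 0.28.

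Protein quality control was lower in part. Of 47 chaperone and heat shock genes 37 were lower, and the median was -0.17. Without overlap 8 were lower and 0 higher, against 8.42% and 9.27% of all genes. The cytosolic chaperonin subunit CCT2 read 4142, 4434 and 4169 against 3432, 3424 and 2997 (-0.37 ± 0.14, limma adjusted p = 0.685). DNAJA1, a partner of HSP70, was at -0.75 ± 0.33 (-0.27 in another probe set), and the small heat shock protein of muscle HSPB8 at -0.46 ± 0.19. Leaving out an array raised the count without overlap to 16 (day 7 replicate 1), 15 (day 7 replicate 2) and 15 (day 21 replicate 3), and it was 12 on the scale of the hybridization controls.

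Of 37 proteasome genes, 3 were higher and 7 lower without overlap, against 9.27% and 8.42% of all genes, with changes from -0.29 to 0.29. These counts were 0 and 4 on the scale of the hybridization controls, 9 and 8 without day 21 replicate 1, and 8 and 7 without day 21 replicate 2, and the median of 0.04 ran from -0.04 to 0.09 over the alternatives. Ribosomal proteins ran from -0.36 to 0.26 with a median of 0.06 over 58, which was -0.01 on the scale of the hybridization controls and -0.03 with quantile normalization. Without overlap, 4 were higher and 0 lower, against 24 and 1 without day 21 replicate 1, 11 and 1 without day 7 replicate 1, and 1 and 13 with quantile normalization. Ribosome assembly factors had a median of -0.04 over 42, with 5 without overlap in each direction, against the same shares of all genes. These counts were 0 higher and 6 lower on the scale of the hybridization controls, 9 and 11 without day 7 replicate 1, and 6 and 9 without day 21 replicate 2. Among 27 genes of atrophy and autophagy 6 were higher and 3 lower without overlap, against the same shares of all genes. Their median was 0.16, or 0.00311 with the spike ratio as a covariate and 0.05 without day 7 replicate 3. FBXO31, an adaptor of a ubiquitin ligase, was at 0.93 ± 0.24, and both of its probe sets were higher. The antioxidant list had a median of 0.14 over 34 genes, with 7 higher and 2 lower without overlap, against the same shares of all genes. The count of higher genes was 0 on the scale of the hybridization controls and 12 without day 7 replicate 1. The median was 0.04 without day 7 replicate 3 or day 21 replicate 1.

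**Figure D5:**
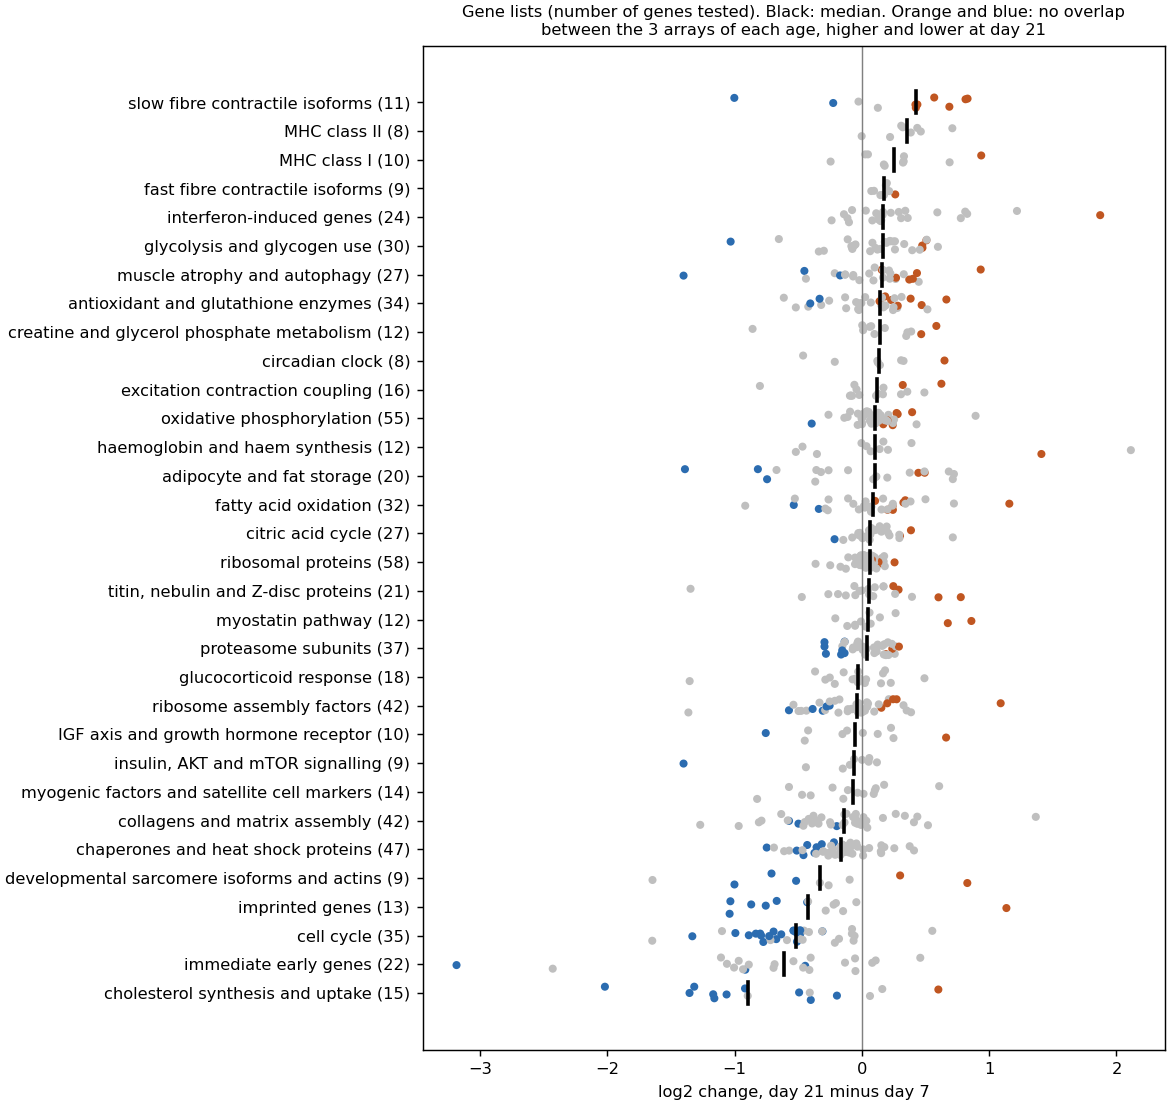
Log2 change of each measured member of the pathway gene lists with at least 8 measured members, with the list median as a black bar and the number of genes in brackets. Of the lists drawn, cholesterol synthesis has the lowest median (-0.90) and slow fibre isoforms the highest (0.42), and orange and blue mark members whose 3 arrays per age do not overlap.

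Genes of antigen presentation were mostly higher but seldom without overlap. Of 10 MHC class I genes 9 were higher, with a median of 0.25, and SLA-6 read 292, 256 and 331 at day 7 and 662, 421 and 623 at day 21 (0.94 ± 0.35, limma adjusted p = 0.685). It was the 1 gene higher without overlap, against 9.27% of all genes, and 0 were lower, against 8.42%. The count of higher genes was 3 when either day 7 replicate 1 or day 21 replicate 2 was left out. B2M was at 0.05 and overlapped in its brightest probe set, while another of its 9 tested probe sets was at 0.81 without overlap. Of 8 MHC class II genes, 7 were higher and all overlapped, with a median of 0.35 and SLA-DRB1 at 0.46 ± 0.21, although 5 were without overlap when day 7 replicate 1 was left out and 4 when day 21 replicate 2 was. Leaving out day 21 replicate 1 gave medians of 0.16 for class II and 0.10 for class I. SLA genes are alike in sequence, so a probe set may also pick up a related gene. In the 24 interferon-induced genes UBD was the 1 without overlap, higher at day 21, against 9.27% of all genes. Day 7 replicate 1 stood apart there, with RSAD2 at 1341 against 57.0 and 26.4, and the median of 0.16 became 0.89 without that array, with 17 genes without overlap, and -0.13 without day 7 replicate 3.

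Markers of blood cells were few. Of 19 lymphocyte markers with a symbol, 15 were dim, CD3D, CD3E, CD4, CD8A and PTPRC among them, and the summed signal was 934 to 1534 at day 7 and 1088 to 1988 at day 21. CCL5, a chemokine of T cells, was at 1.30 ± 0.46 and overlapped. Of 13 macrophage markers measured, 10 were lower and none was without overlap, with a median of -0.19 that became 0.05 without day 21 replicate 3. Of the red cell markers, ALAS2 was higher as above, AHSP, which protects alpha globin, read 100, 14.6 and 122 against 671, 92.8 and 232 (2.11 ± 0.81), and HBB was at 0.14 ± 0.24. Their summed signal over 4 markers was 1014 to 1274 at day 7 and 1659 to 2558 at day 21, and the part of blood in the ALAS2 value was not tested. Among 12 genes of haemoglobin and haem synthesis the median was 0.10, or 0.03 on the scale of the hybridization controls and 0.000582 without day 7 replicate 3. Of 8 neutrophil markers with a symbol 6 were dim.

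In the matrix between fibres, 31 of 42 genes were lower, but 3 without overlap against 8.42% of all genes. The median of -0.14 became 0.03 without day 21 replicate 3 and -0.45 without day 21 replicate 2, where 15 genes were lower without overlap. LAMB1, a laminin of the basement membrane, read 3920, 3946 and 3928 at day 7 and 2374, 2798 and 2778 at day 21 (-0.57 ± 0.20, limma adjusted p = 0.642). COL3A1 was at 0.34 ± 0.34 and POSTN, a matrix protein of growing tissue, at -1.27 ± 0.54 with 2276, 1753 and 5887 against 976, 2475 and 692. The 12 fibroblast markers had a median of -0.02, which ran from -0.52 to 0.16 over left-out arrays, the ends being day 21 replicates 2 and 3. Of 14 endothelial markers 2 were higher and 2 lower without overlap, against 9.27% and 8.42% of all genes. VWF was at 0.61 ± 0.26 and PECAM1 at -0.37 ± 0.16 (-0.04 in another probe set). The median of -0.07 became 0.10 without day 21 replicate 2.

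The remaining lists had few members apart. The circadian clock had 1 of 8 genes higher without overlap, RORA at 0.65 ± 0.38, against 9.27% of all genes. The glucocorticoid response had none of 18, and the medians of these lists were 0.13 and -0.03. The second median turned sign when an array was left out, to 0.01 and 0.04 for day 7 replicates 2 and 3, and to 0.07 for day 21 replicate 3. Of 3 Schwann cell and nerve markers S100B was higher (0.59 ± 0.24), and both tendon and cartilage markers measured overlapped.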

How the data were processed

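The study measured RNA in 12 arrays. As deposited, the table holds linear intensity signals that the authors computed with MAS5, whose version is not given in the sources used here. All 12 arrays have a 2% trimmed mean of 500.1, and log2 of the signals was used with no further scaling. The table has 24123 probe sets, of which 124 are controls and were not tested. The dimmest 40% of the remaining 23999 by mean log2 signal over all 12 arrays (a signal under 90.3) were also dropped, leaving 14399. Gene symbols came from the platform's probe table. Of 10099 probe sets with 1 symbol, 9989 were found again by Entrez identifier, with 0 symbols changed. A gene was read by its brightest tested probe set over all 12 arrays.

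limma 3.58.1 (R 4.3.3) fitted a mean per age over all 12 arrays, moderated with a mean-variance trend, and took day 21 minus day 7, so that a negative value is lower at day 21. Array measures were compared by exact permutation. The fit was tested on simulated data, and figures were drawn with matplotlib 3.10.9. The number of arrays limits the precision.

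The comparison, the 34 pathway lists and 13 marker lists and the rules were chosen with earlier results of these data known. Since no gene passed, the rule named the 12 genes higher and the 12 lower with the lowest p among those that differed at least 2-fold without overlap. It also named up to 4 members per list by p, and certain muscle genes whatever their values. FDFT1, MSMO1, SQLE, HSD17B7, SC5D, NSDHL, HMGCS1, SREBF2, MCM4, HBB and other members further down a list were named after their values were seen. The alternatives were no filter or a filter of 60%, quantile normalization, median centring, scaling on 27 hybridization control probe sets, an offset of 29.7, a constant prior variance, weighted arrays, a block for the replicate number, fits on 6 or 9 arrays, the spike ratio as a covariate, gene means over probe sets, and leaving out each array.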

Additional observations from a re-analysis of the deposited data

How the results depend on the processing

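The count of 1 called probe set was kept with no filter, a stricter filter, quantile normalization, median centring, an offset, no variance trend and the spike ratio as a covariate. It was 2 on the scale of the hybridization controls, 2 with array weights, 2 with only the 6 arrays compared and 4 with the 9 arrays of days 7, 14 and 21, and all of these changed at least 2-fold, so the counts at that size were also 2, 2, 2 and 4. With the replicate number as a block it was 2, by either measure. Leaving out 1 array gave 1 to 2, by either measure, with 2 without day 7 replicate 2 or day 21 replicate 2. The probe set that passed was called in all of these. At an unadjusted p under 0.05 the counts ran from 686 with the stricter filter to 1506 with array weights. The replicate numbers did not pair the arrays: deviations of same-numbered day 7 and day 21 arrays correlated at 0.11, -0.13 and -0.19, so the block result says nothing of a weaker or stronger effect.

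Among the named genes, 2 turned direction in an alternative: MYOD1 from 0.09 to -0.19 without day 7 replicate 3 and to -0.02 without day 21 replicate 1 (range -0.19 to 0.35 over left-out arrays), and TPM3 from -0.23 to 0.25 with the mean of its probe sets. The cause was not tested. INSIG1 and FDPS crossed the threshold as given above.

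On the scale of the hybridization controls the median of all probe sets was -0.06 in place of 0.00824, below the 0.1 at which changes would be given relative to it. Precision is limited by 3 arrays per age. Some signals of FOXO3, DIO3, LOC100152306, AHSP, NR4A3 and, at day 7, of CYP3A29, UBD and CAMK1 also lay near or below the limit for dim probe sets. MAS5 signals vary more there.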
